A study of Mus musculus with 18 samples.

Results

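Immunoglobulin constant genes encode the part of the antibody heavy and light chains that does not differ between B cell clones. The genes described here are 8 heavy chain genes, Ighm, Ighd, Ighg1, Ighg2b, Ighg2c, Ighg3, Igha and Ighe, and 2 light chain genes, Igkc and Iglc1. They were chosen by name, and each name was matched to 1 gene identifier through the GRCm38 annotation, giving 10 genes of the 51912 in the table. RNA-seq was made from mouse B cells of C57BL/6 animals that were wildtype (WT) or Sh3gl1-/-, a knockout of the gene for endophilin A2, a membrane-curving protein of the endocytic pathway. Each genotype was measured in 3 states, transitional B cells without treatment, follicular B cells without treatment, and follicular B cells treated with CD40L for 14 h, with 3 libraries in each of the 6 groups. CD40L is the T cell ligand of CD40 and mimics part of T cell help. The knockout is carried by the whole animal, the labels give no age, and the sort used for the transitional libraries is not described in the sources used here, although surface IgM serves as a gating marker of transitional subsets in the flow cytometry of the same study.

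A B cell that leaves the bone marrow carries IgM, and the same primary transcript gives Ighm or Ighd mRNA through alternative splicing and polyadenylation, so that a maturing cell can gain IgD without any change to its DNA. The downstream genes for IgG, IgE and IgA are used after class switch recombination, which is preceded by a sterile germline transcript from the gene that will be joined. Each heavy chain gene also has alternative 3′ ends, one for a membrane-bound receptor chain and one for a secreted antibody chain, the latter favoured in plasma cells. A gene-level count does not separate a germline transcript from the mRNA of a switched cell.

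The libraries held between 12404688 and 18366078 expected counts, and the 10 genes took 1.06 to 4.13% of them. Sh3gl1 had 377 to 929 counts in the 9 WT libraries and 1 to 22 counts in the 9 Sh3gl1-/- libraries. Transitional Sh3gl1-/- libraries 1 and 3 stood apart in Jchain, a marker of antibody-secreting cells whose product joins IgM and IgA into polymers. Jchain was at 2474 and 3878 TPM there, against 974 TPM in library 2 and 379 to 610 TPM in transitional WT cells. Whether these 2 libraries held more antibody-secreting cells was not tested. TPM gives the level of a transcript per unit of its length, as its share of all transcripts. Over the 10 plasma cell markers examined, all listed above 0 in every transitional library, the summed level was 1590 to 4529 TPM in transitional Sh3gl1-/- cells and 1197 to 1410 TPM in transitional WT cells. Jchain carried most of the sum in the Sh3gl1-/- libraries. By genotype it was the 1 marker of 10 called higher by edgeR, while Mzb1, at 332 to 376 TPM against 483 to 541 TPM, was called lower. For the members described in full, edgeR values are also given without libraries 1 and 3, which leaves 1 transitional Sh3gl1-/- library, assumed to vary like the other groups. For ratios and form shares, values are given per library. B cell markers, among them Ms4a1, Cd79a, Cd79b, Cd22 and Pax5, were present in every library. The 5 transitional markers Cd93, Cd24a, Rag1, Rag2 and Vpreb3 summed to 1387 to 1580 TPM in transitional WT, 718 to 1245 TPM in transitional Sh3gl1-/- and 432 to 696 TPM in untreated follicular libraries. The summed level of the 6 B cell markers was 8430 to 11450 TPM in transitional Sh3gl1-/- libraries and 11720 to 13310 TPM in transitional WT libraries. Replicate libraries of a group differed by more than sampling noise in all 18 pairs, and p-values measure the spread between these libraries, since the labels do not state which came from separate mice.

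The 2 ends of the IgM and IgD chains are shown here because the results below separate them. The 8 heavy chain genes lie on chromosome 12 on the minus strand, Ighm at chr12:113418558-113422730 and Ighd downstream of it at chr12:113406604-113416324 (GRCm38). The secreted IgM end runs on from the last constant exon at chr12:113420867-113420928, and the membrane IgM end is spliced from 2 exons at chr12:113418953-113419068 and chr12:113418826-113418834. The secreted IgD end lies at chr12:113409578-113409645, and the membrane IgD end at chr12:113407764-113407921 and chr12:113407535-113407543. Sequences are coding only, from the GENCODE M21 transcripts, 5′ to 3′ on the strand of the gene. Capitals mark the stop codon and, at the start of a secreted IgM end, the GT at which the membrane form splices out of the shared exon.
Ighm secreted end: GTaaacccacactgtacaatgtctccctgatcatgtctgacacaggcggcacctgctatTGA
Ighm membrane end: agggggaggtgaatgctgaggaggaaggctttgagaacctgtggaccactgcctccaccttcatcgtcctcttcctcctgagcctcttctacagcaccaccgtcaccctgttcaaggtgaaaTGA
Ighd secreted end: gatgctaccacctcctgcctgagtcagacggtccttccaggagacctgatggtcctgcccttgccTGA
Ighd membrane end: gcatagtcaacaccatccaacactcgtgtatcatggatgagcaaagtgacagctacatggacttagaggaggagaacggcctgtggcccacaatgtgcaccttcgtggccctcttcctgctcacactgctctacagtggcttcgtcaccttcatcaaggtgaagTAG

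Levels per transcript length placed the members in 3 tiers that held in all 6 groups. The kappa light chain gene Igkc was highest, at 15682 to 50302 TPM over the 18 libraries. Ighm (2123 to 11595 TPM), Ighd (726 to 3904 TPM) and the lambda light chain gene Iglc1 (1008 to 7097 TPM) formed the middle tier. The 6 downstream heavy chain genes stayed at or below 92.1 TPM, the value of Ighg2b in transitional Sh3gl1-/- library 1. Within the middle tier the order changed with state: Ighm and Iglc1 both exceeded Ighd in every transitional library, Ighd exceeded Iglc1 in every untreated follicular library, and Ighm and Ighd were at nearly the same level in follicular Sh3gl1-/- cells. Ighe, the IgE gene, was at 0 to 5 counts in the untreated libraries. For a gene this low, 3 counts mark the floor below which a library's value was read as not detectable at this depth.

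**Figure D1:**
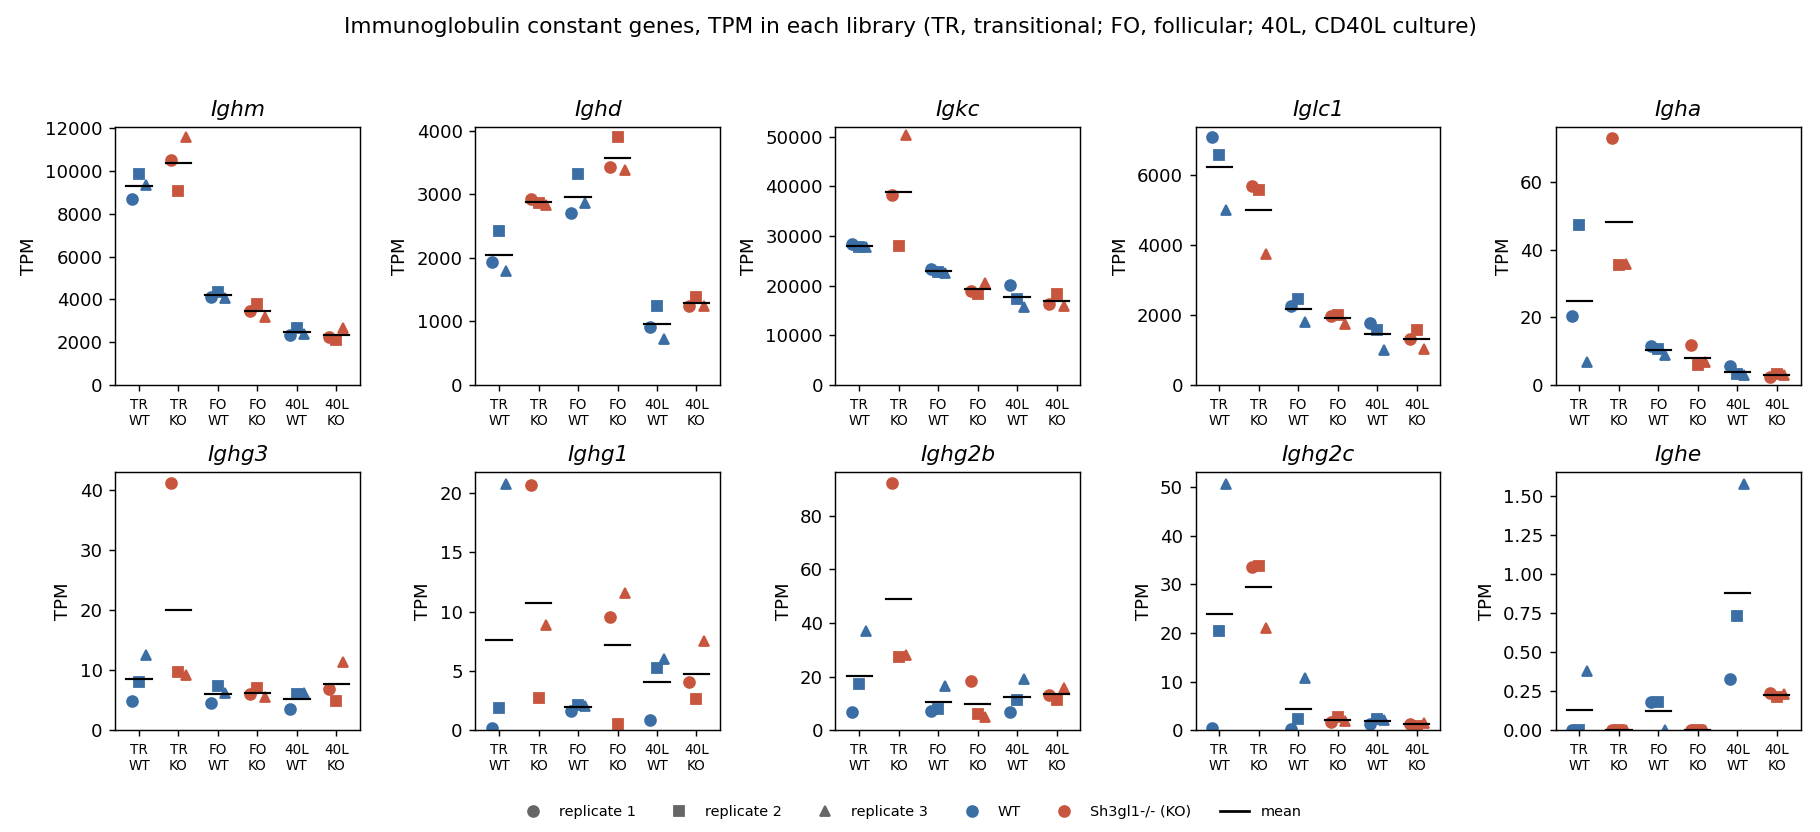
TPM of each of the 10 immunoglobulin constant genes on its own linear axis, 1 point per library, in transitional (TR), follicular (FO) and CD40L-treated follicular (40L) cells of both genotypes. Ighm and Iglc1 are highest in transitional cells, whereas Ighd falls from follicular to CD40L-treated cells and Igkc reaches 50302 TPM in a single transitional Sh3gl1-/- library.

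To follow the isotypes through maturation, follicular libraries were compared with transitional libraries within each genotype. In WT cells Ighm and Iglc1 fell and Ighd rose, and the other 6 tested members did not pass the threshold, an adjusted p under 0.05 by edgeR's quasi-likelihood test, adjusted by Benjamini and Hochberg's method over all genes of the fit. These 3 called genes of 9 tested stand against 25.9% of all 14580 genes called in the same comparison, 11.7% higher and 14.2% lower. Ighe did not pass the filter on low counts and was not tested.

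Ighm was at 8678, 9867 and 9329 TPM in transitional WT libraries 1, 2 and 3. In follicular WT cells it was at 4119, 4350 and 4071 TPM, below every transitional library. The fitted log2 fold change was -1.11 ± 0.08 (SE, n = 3 per group, edgeR's quasi-likelihood test, adjusted p = 2.52e-06). Sh3gl1-/- cells showed the same direction, and Ighm went from 10527, 9044 and 11595 TPM in transitional libraries to 3437, 3790 and 3192 TPM in follicular libraries, a log2 fold change of -1.52 ± 0.08 (edgeR's quasi-likelihood test, adjusted p = 1.15e-07). With transitional Sh3gl1-/- libraries 1 and 3 left out, the fall of Ighm in Sh3gl1-/- cells was -1.31 on the log2 scale and was still called (edgeR's quasi-likelihood test, adjusted p = 8.84e-07).

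Ighd moved the other way. It was at 1940, 2424 and 1789 TPM in transitional WT libraries and at 2703, 3325 and 2859 TPM in follicular WT libraries, without overlap, and rose by 0.57 ± 0.10 (SE) on the log2 scale (edgeR's quasi-likelihood test, adjusted p = 9.54e-04). The Sh3gl1-/- libraries had Ighd at 2928, 2869 and 2832 TPM in transitional and 3424, 3904 and 3379 TPM in follicular cells, where it rose by 0.33 ± 0.10 (edgeR's quasi-likelihood test, adjusted p = 0.0441). The Sh3gl1-/- call of Ighd was lost without transitional libraries 1 and 3 (log2 fold change 0.37, edgeR adjusted p = 0.189), without any 1 of the 6 Sh3gl1-/- libraries (log2 fold change 0.30 to 0.36), and without follicular WT library 3, which shares the fit (adjusted p = 0.0578). The transitional Sh3gl1-/- libraries lay closer to the follicular WT libraries in Ighd than to the transitional WT libraries.

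As both mRNAs come from 1 primary transcript, their ratio was computed per library from TPM. The Ighm to Ighd ratio was 4.47, 4.07 and 5.22 in transitional WT libraries and 1.52, 1.31 and 1.42 in follicular WT libraries. The Sh3gl1-/- ratio was 3.60, 3.15 and 4.09 in transitional libraries and 1.0, 0.97 and 0.94 in follicular libraries. The groups did not overlap in either genotype. The mean log2 ratio differed by -1.69 in WT and -1.89 in Sh3gl1-/- cells (follicular minus transitional, two-sided exact permutation p = 0.1 each, the smallest that 3 against 3 libraries allow, adjusted p = 0.14 over the 7 pairwise comparisons).

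The light chains did not move together. Iglc1 (chr16:19061618-19062071, minus strand) encodes the lambda 1 constant region and was at 7097, 6579 and 5020 TPM in transitional WT libraries. It was at 2271, 2454 and 1805 TPM in follicular WT libraries, below all of them, a log2 fold change of -1.48 ± 0.15 (edgeR's quasi-likelihood test, adjusted p = 1.78e-05). Iglc1 in Sh3gl1-/- cells fell by 1.37 on the log2 scale, from 5698, 5592 and 3762 TPM to 1989, 2012 and 1745 TPM (edgeR's quasi-likelihood test, adjusted p = 4.88e-05), and by 1.49 without transitional libraries 1 and 3 (edgeR adjusted p = 1.64e-04). Igkc (chr6:70726435-70726966, plus strand), the kappa constant gene, was at 28454, 27692 and 27804 TPM in transitional WT libraries and at 23440, 22836 and 22455 TPM in follicular WT libraries. Its TPM values did not overlap, but the fitted log2 fold change of -0.25 ± 0.16 was not called (edgeR's quasi-likelihood test, adjusted p = 0.266).

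Igkc fell in Sh3gl1-/- cells during maturation, and libraries 1 and 3 carried most of the size of that fall. It was at 38245, 28012 and 50302 TPM in transitional Sh3gl1-/- libraries and at 18972, 18251 and 20626 TPM in follicular Sh3gl1-/- libraries. The log2 fold change of Igkc was -1.0 ± 0.16 with all libraries and -0.47 without libraries 1 and 3 (edgeR's quasi-likelihood test, adjusted p = 9.62e-04 and 0.00471). Among Sh3gl1-/- libraries 7 of 9 tested members were called, 1 higher and 6 lower, against 10.4% of all genes (3.7% higher and 6.71% lower). Without libraries 1 and 3 fewer members, and fewer of all genes, were called. The lambda share, Iglc1 as a percent of Igkc plus Iglc1 in TPM, was 18.2% ± 2.5 (SD, n = 3) in transitional WT and 8.66% ± 1.14 in follicular WT cells, without overlap (exact permutation p = 0.1, adjusted p = 0.467). The Sh3gl1-/- lambda share was 12.2% ± 4.89 and 9.07% ± 1.13, with overlap (exact permutation p = 0.4).

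The other lambda constant genes behaved differently from Iglc1, with which their transcripts share no more than 19 identical bases in a row. Iglc2 fell by 0.33 on the log2 scale in WT maturation (edgeR's quasi-likelihood test, adjusted p = 0.00104), from 6593, 6198 and 6243 TPM to 4651, 4773 and 4858 TPM. Iglc3 was not called, with a log2 fold change of 0.11 (edgeR adjusted p = 0.241). With Iglc2 and Iglc3 counted as lambda, the change of the lambda share from transitional to follicular cells was -4.01 percentage points in WT and 6.75 in Sh3gl1-/- cells. With all libraries the direction in Sh3gl1-/- cells thus depends on which lambda genes are summed. The high Igkc of transitional Sh3gl1-/- libraries 1 and 3 (38245 and 50302 TPM, against 28012 TPM in library 2) enters this mean.

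The downstream heavy chain genes were not called during WT maturation with the low-count filter and no block. Ighg2c, the IgG2c gene (chr12:113285325-113288932), was at 0.45, 20.4 and 50.7 TPM in transitional WT libraries and at 0.34, 2.23 and 10.8 TPM in follicular WT libraries, with overlapping groups. Its log2 fold change was -2.41 ± 0.98 (SE, edgeR's quasi-likelihood test, adjusted p = 0.0879). Ighg2b (chr12:113302965-113307933) was at 6.86, 17.2 and 37.1 TPM and then 7.11, 7.73 and 16.4 TPM (log2 fold change -0.75, edgeR adjusted p = 0.347). Replicate numbers paired the WT transitional with the WT follicular libraries. With the replicate number as a block within each genotype 5 of 9 members were called, against 4246 of all 14580 genes (3772 without the block). Called in addition were Ighg2b at -0.63 and Ighg2c at -2.43 (edgeR's quasi-likelihood test, adjusted p = 0.0237 and 1.73e-04). Their secreted transcripts share an identical stretch of 78 bases but no window of 90 bases, and several of their expected counts were not whole, so some division of reads between Ighg2b and Ighg2c is uncertain. Ighg2c was also called without transitional WT library 1 or follicular WT library 3 (edgeR adjusted p = 0.0104 and 0.0245), and Igha, at -0.57 with all libraries, was called at -0.97 without transitional WT library 3 (edgeR adjusted p = 0.0383).

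In Sh3gl1-/- cells Igha, Ighg2b and Ighg2c fell between the transitional and the follicular stage, and the estimates kept their sign with library 2 as the only transitional Sh3gl1-/- library, where none was called. Ighg2b went from 92.1, 27.2 and 27.9 TPM to 18.5, 6.09 and 4.76 TPM, a log2 fold change of -2.09 ± 0.56 (edgeR's quasi-likelihood test, adjusted p = 0.0264), and -1.19 without libraries 1 and 3 (adjusted p = 0.360). Ighg2c went from 33.7, 33.9 and 21.1 TPM to 1.78, 2.67 and 1.86 TPM, a log2 fold change of -3.75 ± 1.06 (edgeR's quasi-likelihood test, adjusted p = 0.0353), and -3.91 without them (adjusted p = 0.117). Igha, the IgA gene (chr12:113254830-113260236), went from 72.8, 35.4 and 35.8 TPM to 11.7, 5.82 and 6.73 TPM, a log2 fold change of -1.67 ± 0.41 (edgeR's quasi-likelihood test, adjusted p = 0.0164), and -1.17 without them (adjusted p = 0.253). Each of the 3 genes was higher in every transitional than in every follicular Sh3gl1-/- library. The calls of all 3 were also lost on leaving out transitional library 1, follicular library 2 or follicular library 3 alone (edgeR's quasi-likelihood test, adjusted p = 0.0704 to 0.153), and that of Ighg2c without transitional library 2 or follicular library 1. Jchain fell in the same comparison (log2 fold change -4.49, edgeR adjusted p = 2.60e-05), and in WT maturation too (log2 fold change -2.75, edgeR adjusted p = 3.77e-04); the part of antibody-secreting cells in the members' levels was not tested.

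Whether maturation moved the members by different amounts in the genotypes was tested as an interaction. None of 9 tested members was called in this test, against 0.0686% of all genes (10 of 14580, 0.048% with a positive and 0.0206% with a negative difference). At an unadjusted p under 0.05 there were 2 members: the difference of log2 fold changes, Sh3gl1-/- minus WT, was -0.41 ± 0.11 for Ighm (edgeR's quasi-likelihood test, adjusted p = 0.149) and -0.75 ± 0.22 for Igkc (adjusted p = 0.173). Igkc was called by DESeq2 (adjusted p = 0.0349) and without transitional Sh3gl1-/- library 2 by edgeR (adjusted p = 0.0485). With the replicate block within each genotype, Igkc (-0.71) and Ighg2b (-1.40) were called by edgeR's quasi-likelihood test (adjusted p = 0.0307 and 0.0355). With library 2 as the only transitional Sh3gl1-/- library, the differences were -0.20 for Ighm and -0.23 for Igkc (edgeR adjusted p = 0.642 and 0.644).

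**Figure D2:**
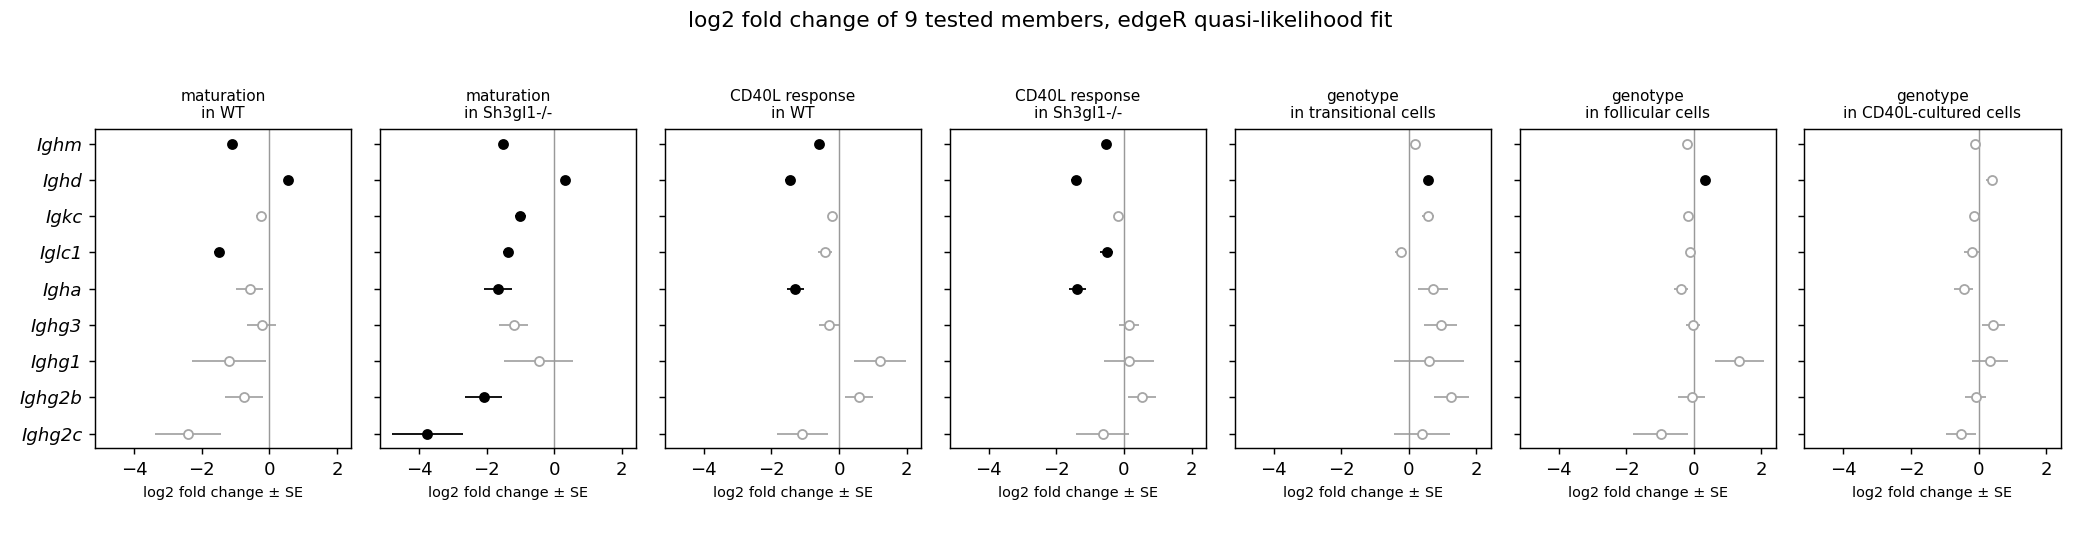
log2 fold change with its standard error for the 9 tested members in 7 pairwise comparisons, from edgeR's quasi-likelihood fits with 3 libraries per group. Ighd has the opposite sign to Ighm in both maturation comparisons, and in the CD40L comparisons Ighd and Igha lie furthest below 0.

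The response to CD40L compared treated with untreated follicular libraries of each genotype. Ighd, Ighm and Igha fell in both genotypes, Ighd with the largest estimate and Igha from an already low level. In WT cells 3 of 9 tested members were called, all lower, while 49.3% of all genes were called, 23.6% higher and 25.7% lower. For Sh3gl1-/- cells 4 of 9 were called, all lower, against 42.4% of all genes (20.6% higher and 21.8% lower). The cultured libraries also differ from the untreated ones by the culture itself, so ligand and culture cannot be told apart here.

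Ighd was at 906, 1241 and 726 TPM in CD40L-treated WT libraries, far below the lowest untreated WT library at 2703 TPM. The log2 fold change was -1.46 ± 0.14 (SE, edgeR's quasi-likelihood test, adjusted p = 1.22e-06). Sh3gl1-/- libraries had Ighd at 1237, 1377 and 1250 TPM after CD40L, a log2 fold change of -1.43 ± 0.14 (edgeR's quasi-likelihood test, adjusted p = 1.94e-06). Untreated and treated groups did not overlap in either genotype.

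Ighm was at 2353, 2642 and 2395 TPM in treated WT libraries and at 2241, 2123 and 2682 TPM in treated Sh3gl1-/- libraries, all below the untreated libraries of the same genotype. The log2 fold change of Ighm was -0.60 ± 0.07 in WT and -0.53 ± 0.07 in Sh3gl1-/- cells (edgeR's quasi-likelihood test, adjusted p = 1.14e-05 and 4.56e-05). The Ighm to Ighd ratio was therefore higher after CD40L, at 2.60, 2.13 and 3.30 in WT and 1.81, 1.54 and 2.15 in Sh3gl1-/- libraries. On the log2 scale it differed from the untreated cells by 0.89 in WT and 0.90 in Sh3gl1-/- cells, without overlap (exact permutation p = 0.1 each, adjusted p = 0.14).

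**Figure D3:**
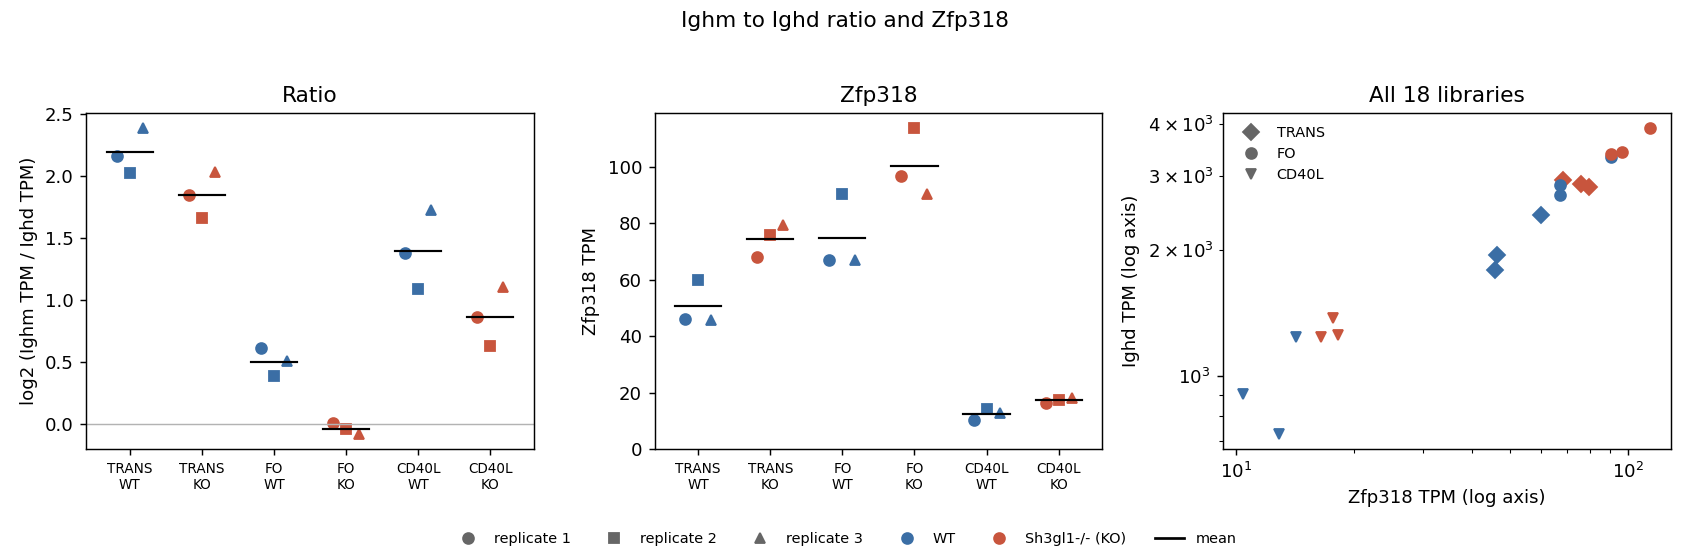
Left, log2 of the Ighm to Ighd TPM ratio per library in the 6 groups. Middle, TPM of Zfp318 per library. Right, Ighd against Zfp318 on log axes over all 18 libraries. The ratio is highest in transitional cells and near 0 on the log2 scale in follicular Sh3gl1-/- cells, and the CD40L-treated libraries have the lowest Zfp318 and Ighd.

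Zfp318 encodes a nuclear zinc finger protein known to be needed for Ighd mRNA, through readthrough past the Ighm polyadenylation sites. It was the gene most like Ighd among 15117 genes across the 18 libraries (Pearson r = 0.976 of log2 CPM, a description over libraries that share group and depth). Zfp318 was at 46.3, 60.1 and 45.8 TPM in transitional WT libraries, 67.2, 90.5 and 66.9 TPM in follicular WT libraries and 10.4, 14.2 and 12.8 TPM in CD40L-treated WT libraries. It rose by 0.60 on the log2 scale in WT maturation and fell by 2.53 with CD40L (edgeR's quasi-likelihood test, adjusted p = 0.00331 and 7.03e-09). In Sh3gl1-/- cells Zfp318 rose by 0.43 and fell by 2.42 in the same comparisons (edgeR's quasi-likelihood test, adjusted p = 0.0378 and 1.30e-08). Its Sh3gl1-/- maturation call was kept in 7 of 12 fits that left out 1 library. The nearest genes of other members were C6, Ighv6-3 and Cd5l for Ighm (r = 0.976 to 0.977), Igkv12-44 and Igkv3-5 for Igkc (r = 0.934 and 0.932), and Iglv1, Akap12 and Ighv6-6 for Iglc1 (r = 0.970 to 0.978).

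Igha was at 11.6, 10.6 and 9.01 TPM in untreated follicular WT libraries and at 5.63, 3.16 and 2.98 TPM after CD40L, without overlap, a log2 fold change of -1.29 ± 0.26 (edgeR's quasi-likelihood test, adjusted p = 8.76e-04). Sh3gl1-/- libraries had Igha at 2.45, 3.27 and 3.01 TPM after CD40L, a log2 fold change of -1.38 ± 0.26 (edgeR's quasi-likelihood test, adjusted p = 8.45e-04). Iglc1 fell by 0.51 on the log2 scale in Sh3gl1-/- cells (edgeR's quasi-likelihood test, adjusted p = 0.0473), a call lost in 9 of 12 fits that left out 1 library (log2 fold change -0.67 to -0.31 over the 12). In WT cells the estimate of Iglc1 was -0.42 and was not called (edgeR adjusted p = 0.0902). With the replicate number as a block, since the numbers pair treated with untreated libraries, the WT estimate of Iglc1 was -0.44 and was called (edgeR's quasi-likelihood test, adjusted p = 0.0161). Igkc had log2 fold changes of -0.20 in WT and -0.17 in Sh3gl1-/- cells and was called in neither (edgeR adjusted p = 0.127 and 0.217), although it was called in WT at -0.33 without treated library 1 (edgeR adjusted p = 0.0072).

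The IgG genes were not called after CD40L in either genotype with all libraries and the low-count filter. With every gene of at least 1 count kept, Ighg1 and Ighg2b were called higher in WT cells (edgeR's quasi-likelihood test, adjusted p = 0.00114 and 0.0356). Ighg1 (chr12:113325240-113330523) was at 1.58, 2.15 and 2.05 TPM before and 0.86, 5.27 and 5.97 TPM after CD40L in WT cells, with overlapping groups and a log2 fold change of 1.2 ± 0.77 (edgeR's quasi-likelihood test, adjusted p = 0.216). Ighg1 in Sh3gl1-/- cells was at 9.52, 0.54 and 11.6 TPM before and 4.04, 2.63 and 7.54 TPM after. Ighg2b was at 6.94, 11.2 and 18.9 TPM in treated WT libraries and at 13.1, 11.3 and 15.6 TPM in treated Sh3gl1-/- libraries (log2 fold changes 0.59 and 0.53, edgeR adjusted p = 0.253 and 0.322), and its Sh3gl1-/- estimate was 1.18 and called without untreated library 1 (edgeR adjusted p = 0.0294). Ighg3 (chr12:113356224-113361232) stayed between 3.52 and 11.3 TPM in all 12 follicular libraries.

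Ighe (chr12:113269260-113273248) was higher in CD40L-treated than in untreated WT libraries, at a very low level. It had 3, 3 and 0 counts in untreated follicular WT libraries and 6, 13 and 32 counts in treated WT libraries, so each treated library was above each untreated one. In Sh3gl1-/- cells it had 0 counts in all 3 untreated libraries and 4, 3 and 4 counts after CD40L, close to the floor of 3 counts. Ighe did not pass the low-count filter. With every gene of at least 1 count kept, it was called higher in WT cells (edgeR's quasi-likelihood test, adjusted p = 0.0221). The Sh3gl1-/- counts are too near the floor to be read as a difference, and no fold is given because the untreated counts are at or under it.

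The share of the 6 downstream genes in all heavy chain TPM can hold germline transcripts as well as the mRNA of switched cells. This downstream share was 0.47% ± 0.15 (SD, n = 3) in untreated and 0.83% ± 0.33 in treated WT cells. In Sh3gl1-/- cells it was 0.48% ± 0.20 and 0.81% ± 0.17. The treated and untreated groups overlapped in both genotypes (exact permutation p = 0.2 each). No member's response to CD40L differed between genotypes in the interaction test: 0 of 9 members and 0% of all 14460 genes were called by edgeR's quasi-likelihood test, no member had an unadjusted p under 0.05, and 1278 genes did. DESeq2 called 29 genes in this test and none of the members.

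To ask how the loss of endophilin A2 affected the members at each stage, genotypes were compared within each state. By edgeR with the low-count filter and no block, Ighd was the only member called, higher in Sh3gl1-/- transitional and follicular cells, and both calls were sensitive to single libraries. In transitional cells 1 of 9 members was called, against 3.73% of all genes (1.26% higher and 2.48% lower), in follicular cells 1 of 9 against 0.845% (0.485% higher and 0.36% lower), and in CD40L-treated cells 0 of 9 against 0.0227%. In CD40L-treated cells only Ighd had an unadjusted p under 0.05 by edgeR, and DESeq2 also called no member.

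In transitional cells every Sh3gl1-/- library, at 2832 to 2928 TPM, had more Ighd than every WT library, at 1789 to 2424 TPM. The log2 fold change was 0.56 ± 0.11 (SE, n = 3 per group, edgeR's quasi-likelihood test, adjusted p = 0.030). With library 2 as the only Sh3gl1-/- library the log2 fold change was 0.52 and was not called (edgeR's quasi-likelihood test, adjusted p = 0.559). The call was also lost on leaving out WT library 1 (adjusted p = 0.0724), WT library 3 (0.0647), Sh3gl1-/- library 1 (0.111) or Sh3gl1-/- library 3 (0.123) by edgeR's quasi-likelihood test, and with all 18 libraries in 1 fit (0.0528) or the replicate number as a block (0.0655).

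In follicular cells Ighd was at 3379 to 3904 TPM in Sh3gl1-/- and 2703 to 3325 TPM in WT libraries, again without overlap. Its log2 fold change was 0.34 ± 0.07 (edgeR's quasi-likelihood test, adjusted p = 0.0483). The call was lost with scaling that left out all immunoglobulin genes (adjusted p = 0.0504), with all 18 libraries in 1 edgeR fit (0.450), and without any 1 of 5 of the 6 libraries, WT library 2 being the exception. After CD40L the Ighd estimate was 0.39 ± 0.17, with 1237 to 1377 TPM in Sh3gl1-/- and 726 to 1241 TPM in WT libraries, and was not called (edgeR's quasi-likelihood test, adjusted p = 0.704). The 3 estimates had the same sign, and the groups overlapped only after CD40L, by WT library 2 at 1241 TPM.

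Ighm was not called with all libraries, the low-count filter and no block. In follicular cells it was at 3192 to 3790 TPM in Sh3gl1-/- libraries, below the 4071 to 4350 TPM of the WT libraries, with a log2 fold change of -0.21 ± 0.05 (edgeR's quasi-likelihood test, adjusted p = 0.0836). It was called with the replicate number as a block (-0.21, edgeR adjusted p = 0.0122) and without Sh3gl1-/- library 2 (-0.24, adjusted p = 0.0421 by edgeR). In transitional cells the Ighm estimate was 0.19 ± 0.10 with all libraries and -0.02 without libraries 1 and 3 (edgeR's quasi-likelihood test, adjusted p = 0.291 and 0.982). The follicular Ighm to Ighd ratio was lower in each Sh3gl1-/- library (0.94 to 1.0) than in each WT library (1.31 to 1.52), a difference of -0.54 on the log2 scale (exact permutation p = 0.1, adjusted p = 0.14). The difference was -0.34 in transitional and -0.54 in CD40L-treated cells, with overlapping groups in both (exact permutation p = 0.2 each).

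Zfp318 lay on the same side as Ighd in these comparisons. Its levels were 68.2, 75.9 and 79.6 TPM in transitional and 96.8, 114 and 90.3 TPM in follicular Sh3gl1-/- libraries. The log2 fold change against WT was 0.57 in transitional cells (edgeR's quasi-likelihood test, adjusted p = 0.0388), 0.42 in follicular cells (adjusted p = 0.102) and 0.55 in CD40L-treated cells (adjusted p = 0.448). The transitional call of Zfp318 was kept in 1 of 6 fits that left out a library.

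None of the remaining members was called between genotypes in the same edgeR fits, although other settings called some. Igkc in transitional cells was 0.56 ± 0.18 higher in Sh3gl1-/- on the log2 scale with all libraries (edgeR's quasi-likelihood test, adjusted p = 0.117) and 0.04 higher without libraries 1 and 3. It was called by DESeq2 (adjusted p = 0.0175) and, by edgeR, without library 2 (0.76, adjusted p = 0.0196). Ighg2b was 1.26 ± 0.53 higher (edgeR adjusted p = 0.208), and 0.37 higher without libraries 1 and 3. With every gene of at least 1 count kept, Igha, Ighg2b, Ighg3 and Igkc were called higher in transitional Sh3gl1-/- cells, and in follicular cells Ighg1 higher and Ighm and Igkc lower (edgeR's quasi-likelihood test, adjusted p from 1.36e-07 to 0.0106). In follicular cells Igkc was at 18251 to 20626 TPM in Sh3gl1-/- and 22455 to 23440 TPM in WT libraries, a log2 fold change of -0.18 ± 0.07 (edgeR's quasi-likelihood test, adjusted p = 0.325), called at -0.26 without Sh3gl1-/- library 3 (adjusted p = 0.0397). Ighg1 in follicular cells was 1.35 ± 0.73 higher in Sh3gl1-/- (edgeR adjusted p = 0.57) and was called at 1.91 without Sh3gl1-/- library 2 (adjusted p = 0.021). Other cell types' markers differed alongside: all 4 erythroid markers were called higher in transitional Sh3gl1-/- cells (summed level 5367 to 10830 TPM against 2814 to 4867 TPM), and 3 of 7 T cell markers in follicular Sh3gl1-/- cells (227 to 314 TPM against 121 to 168 TPM). The 6 B cell markers summed to 7628 to 8360 TPM in follicular Sh3gl1-/- and 8853 to 9327 TPM in follicular WT libraries, with none called. The part of these cell types in the members' levels was not tested. In bulk RNA fewer cells of a type and less RNA per cell cannot be told apart.

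The table also allowed an estimate of the secreted form of each heavy chain gene. RSEM reports for each gene an effective length that averages over its transcripts, and this length was recovered from the expected count, the FPKM (fragments per kilobase of transcript, scaled to depth) and the library total. This was checked on expressed genes with a single annotated transcript of 300 to 1000 bases and at least 200 expected counts. Their recovered length was shorter than the transcript by a typical 91.5 to 93.0 bases in each library, with 82.4 to 86.2% of these genes within 5 bases of that value. The heavy chain transcripts, except secreted Ighd, are longer than the checked range, and many IgG and Igha counts were under 200. The secreted and membrane transcripts differ in length, 1493 and 1698 bases for Ighm, 802 and 1806 bases for Ighd, and 1100 and 2540 bases for Igha, so the gene's effective length gives the share of each. The estimate rests on the annotated 3′ ends and on how evenly reads cover them, and it is imprecise for genes of few counts.

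Ighm was mainly in its membrane form in every library but transitional Sh3gl1-/- library 3. The secreted share was 18.9, 18.7 and 15.7% in transitional WT libraries and 14.5, 14.4 and 12.7% in follicular WT libraries. In transitional Sh3gl1-/- libraries it was 45.8, 25.7 and 59.2%, all above every transitional WT library, library 2 included. In follicular Sh3gl1-/- libraries it was 16.1, 17.3 and 15.5%, above every follicular WT library by a smaller margin. After CD40L it was 14.1, 14.2 and 13.9% in WT and 13.8, 13.5 and 13.4% in Sh3gl1-/- libraries. The genotypes did not overlap in any of the 3 states (exact permutation p = 0.1 each, adjusted p = 0.117 over 7 comparisons). After CD40L the sign changed, but the gap was narrow, at most 13.8% in Sh3gl1-/- and at least 13.87% in WT libraries.

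**Figure D4:**
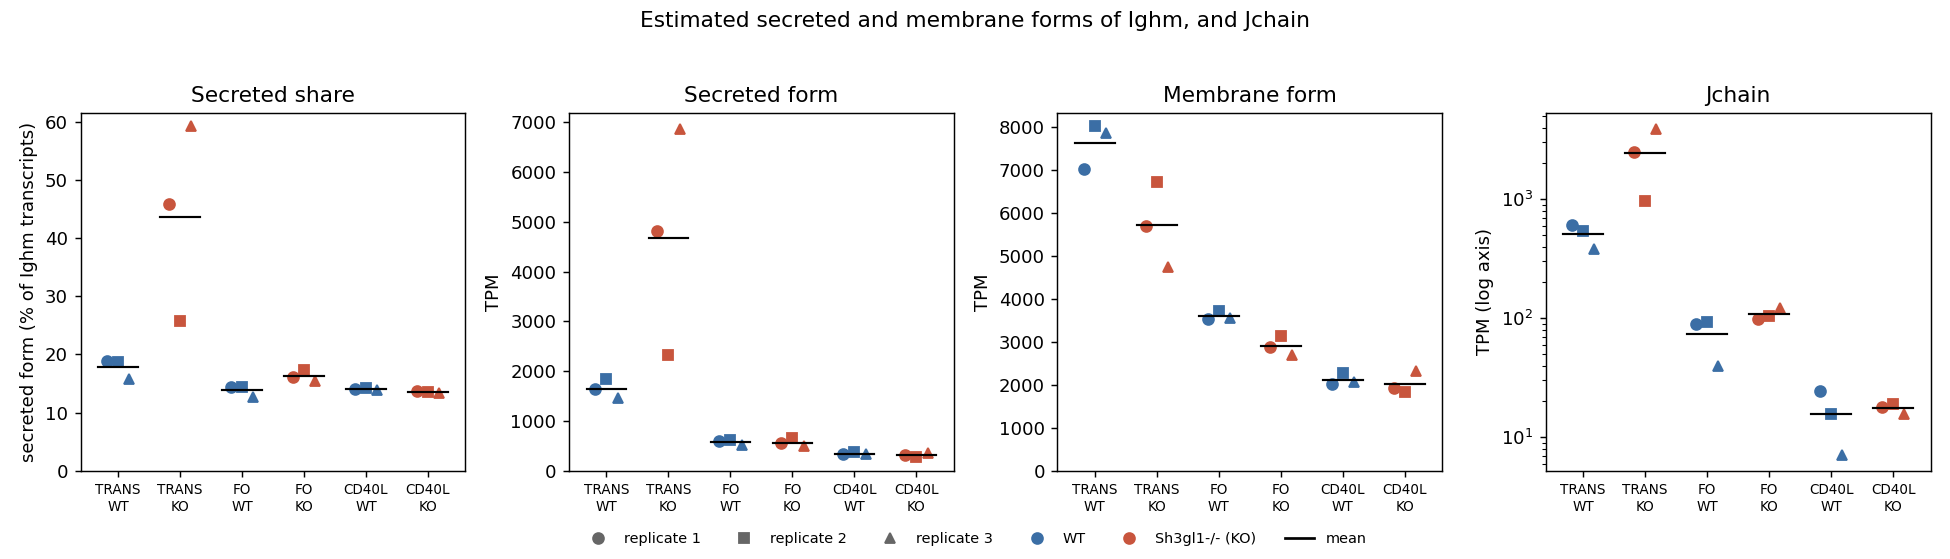
Estimated secreted share of Ighm transcripts, the TPM of the secreted and of the membrane form, and the TPM of Jchain on a log axis, 1 point per library in the 6 groups. Transitional Sh3gl1-/- libraries 1 and 3 have the highest secreted Ighm and the highest Jchain, while membrane Ighm is lower in Sh3gl1-/- than in WT libraries of both untreated states.

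Split by form, the 2 ends of Ighm gave different orders of the genotypes in transitional cells. The secreted form was at 4819, 2322 and 6861 TPM in transitional Sh3gl1-/- libraries and at 1643, 1844 and 1466 TPM in transitional WT libraries. The membrane form was at 5708, 6722 and 4734 TPM in transitional Sh3gl1-/- libraries and at 7035, 8023 and 7863 TPM in transitional WT libraries, so every Sh3gl1-/- library was lower. In follicular cells the membrane form was at 2885, 3135 and 2697 TPM in Sh3gl1-/- and 3524, 3723 and 3555 TPM in WT libraries, again lower in each (exact permutation p = 0.1 in each state, adjusted p = 0.117). The lower level was not particular to Ighm. In both states the summed B cell markers were also lower in every Sh3gl1-/- library, in follicular cells at 7628 to 8360 TPM against 8853 to 9327 TPM. Whether the 2 differences have a common source was not tested. The secreted form overlapped between the genotypes in follicular cells, at 495 to 654 TPM and 517 to 628 TPM. Membrane Ighm was also lower in follicular than in transitional libraries and lower after CD40L than before, without overlap in either genotype.

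Ighd was almost wholly membrane form, with a secreted share between 1.29 and 3.14% in all 18 libraries. Membrane Ighd was therefore close to total Ighd, at 2747 to 2836 TPM in transitional Sh3gl1-/- and 1736 to 2378 TPM in transitional WT libraries. The secreted share of Ighd was lower after CD40L in every library than in the untreated libraries of its genotype, at 1.45 to 2.19% against 2.53 to 2.99% in WT (exact permutation p = 0.1, adjusted p = 0.35).

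The form of Igha differed between the stages. Its secreted end, like that of Ighm, runs on from the last shared exon, at chr12:113258768-113258829, and its membrane end is 1 exon at chr12:113256201-113256397, with capitals used as above.
Igha secreted end: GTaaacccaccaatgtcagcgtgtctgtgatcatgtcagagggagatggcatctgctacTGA
Igha membrane end: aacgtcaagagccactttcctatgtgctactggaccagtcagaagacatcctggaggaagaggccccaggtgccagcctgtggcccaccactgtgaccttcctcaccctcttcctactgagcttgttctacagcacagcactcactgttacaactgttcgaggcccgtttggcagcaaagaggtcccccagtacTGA

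The secreted share of Igha was 42.0, 77.1 and 24.7% in transitional WT and 88.0, 85.5 and 75.8% in transitional Sh3gl1-/- libraries. In follicular cells it was 1.48, 6.87 and 3.05% in WT and 22.4, 2.96 and 1.42% in Sh3gl1-/- libraries, without overlap with the transitional libraries of the same genotype (exact permutation p = 0.1 each, adjusted p = 0.35). The membrane form was at 11.8, 10.8 and 5.01 TPM in transitional and 11.4, 9.91 and 8.74 TPM in follicular WT libraries, with overlap (exact permutation p = 0.9). After CD40L the membrane form of Igha was at 4.54, 3.16 and 2.91 TPM in WT libraries. In Sh3gl1-/- libraries it was at 9.11, 5.65 and 6.63 TPM before and 2.45, 3.14 and 2.82 TPM after, without overlap in either genotype (exact permutation p = 0.1 each, adjusted p = 0.35).

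**Figure D5:**
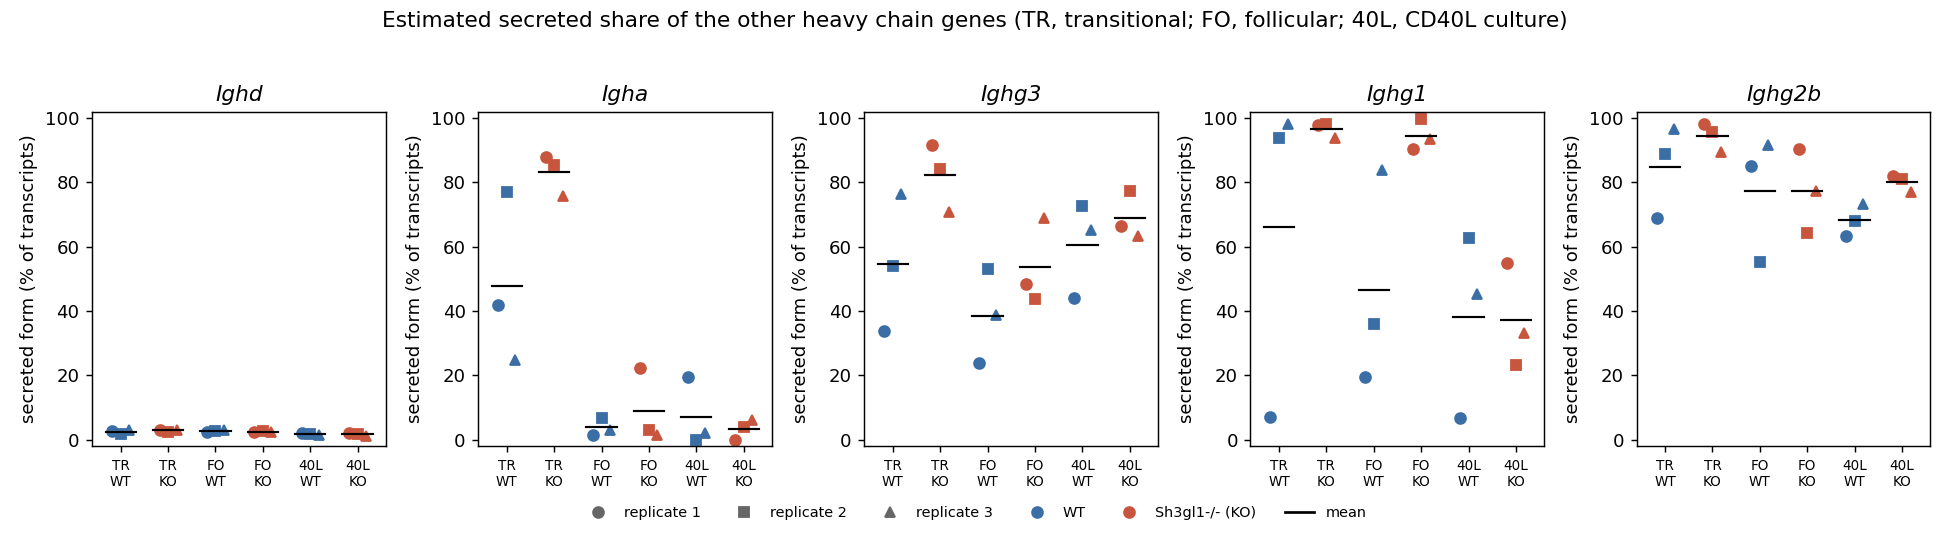
Estimated secreted share of transcripts of Ighd, Igha, Ighg3, Ighg1 and Ighg2b, in percent, 1 point per library in transitional (TR), follicular (FO) and CD40L-treated (40L) cells. Ighd is at or below 3.14% throughout, Igha is above 24% in transitional libraries and at most 22.4% elsewhere, and the IgG genes vary widely between replicates.

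Of the IgG genes, Ighg2b was mostly in its secreted form in all 18 libraries, at 55.2 to 98.2%. Ighg3 ranged from 23.9 to 91.7%, with transitional Sh3gl1-/- libraries (70.8 to 91.7%) above follicular Sh3gl1-/- libraries (43.6 to 69.0%). Ighg1 in Sh3gl1-/- cells was at 90.3, 99.6 and 93.5% in untreated follicular libraries and at 55.0, 23.3 and 33.2% after CD40L, without overlap (exact permutation p = 0.1, adjusted p = 0.35). The membrane form of Ighg1 was at 0.92, 0.00197 and 0.75 TPM before and 1.82 to 5.04 TPM after CD40L in Sh3gl1-/- cells (exact permutation p = 0.1, adjusted p = 0.6). In WT cells the secreted shares of Ighg1 overlapped, at 19.6 to 83.7% before and 6.72 to 62.6% after CD40L. Its counts were as few as 7 in a follicular library, which limits these shares. The coding part of the secreted IgG end is 8 bases long and identical in Ighg1, Ighg2b and Ighg3. It reads GTaaaTGA, with capitals used as above, and lies in Ighg1 at chr12:113328976-113328983. These 8 bases alone therefore do not tell the genes apart. Bases after the stop codon are not shown, and whether they separate these genes was not tested.

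Genes that act on these loci were examined in the same fits. Of 32 tested genes of the class switch machinery, 1 was called higher and 9 lower in WT maturation, and 15 higher and 3 lower after CD40L in WT cells, the median log2 fold changes being -0.15 and 0.43, against 25.9% and 49.3% of all genes called in these comparisons and medians of 0.03 and -0.08 over all genes. The base excision enzyme gene Apex1 (1.78), the end-joining gene Xrcc5 (1.23) and the shieldin-associated gene Mad2l2 (1.01) rose with CD40L on the log2 scale, and each was called in all 12 fits that left out 1 library. Exo1, an exonuclease of mismatch repair, and Xrcc6, of the Ku complex, had log2 fold changes of -1.4 and -0.75 in WT maturation (edgeR adjusted p = 0.00227 and 3.16e-04), the opposite sign to their response to CD40L. Between genotypes, 2 of these genes were called lower in transitional Sh3gl1-/- cells, against 2.48% of all genes, and none in follicular or CD40L-treated cells. The 2 were Xrcc6 and Rpa1, each called in 1 of 6 fits that left out a library.

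Of the genes known to regulate germline transcription and the heavy chain locus, 10 rose and 12 fell among 34 tested after CD40L in WT cells (median log2 fold change -0.06). Over all genes 23.6% were called higher and 25.7% lower in this comparison. Bhlhe40 (2.45), the plasma cell and switching regulator gene Irf4 (1.67) and the receptor gene Cd40 itself (1.31) had the lowest adjusted p among those that rose, and Runx1 (-1.27), the B cell coactivator gene Pou2af1 (-0.88) and the TGF-β receptor gene Tgfbr2 (-0.81) among those that fell. In WT maturation 7 of 33 rose, Tgfbr2 (0.38), Smad4 (0.51) and Pou2f2 (0.29) among them, and 3 fell, Bhlhe40 (-0.98) and Id2 (-0.64) among them. The shares over all genes were 11.7% higher and 14.2% lower. Tgfbr2 and Smad4 belong to the TGF-β pathway that is known to induce germline Igha transcripts. By genotype 1 gene was called in transitional cells, Ikzf1 (-0.39), against 3.73% of all genes, and none after CD40L.

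Of 9 tested genes for receptor partners of the constant regions and other light chains, 1 rose and 6 fell in WT maturation, against 14.2% of all genes lower, and 4 fell after CD40L, against 25.7%. Cd79a and Cd79b encode the signalling chains that carry membrane immunoglobulin to the surface: Cd79b had log2 fold changes of -0.51 in WT maturation and -1.04 after CD40L, and Cd79a of -0.28 and -0.47 (edgeR adjusted p = 4.72e-04, 1.95e-07, 0.0127 and 9.20e-05). Vpreb3, which binds immunoglobulin chains early in B cell life, had -1.27 and -4.31, called in both (edgeR adjusted p = 5.41e-05 and 3.92e-08). Iglc3 fell by 0.44 after CD40L in WT cells (edgeR adjusted p = 0.0127), and Iglc2, at -0.14, was not called. None of the 9 was called between genotypes in any state. Of 9 tested genes of the splicing and 3′ end machinery that sets the Ighm to Ighd choice and the membrane or secreted end, 2 rose (Zfp318 and Hnrnph1) and 2 fell (Cstf2 and Hnrnpf) in WT maturation, and 2 rose (Ptbp1 and Cpsf1) and 2 fell (Zfp318 and Pcf11) after CD40L in WT cells. Over all genes 11.7% rose and 14.2% fell in WT maturation, and 23.6% rose and 25.7% fell after CD40L. The cleavage factor gene Cstf2, known for favouring the secreted IgM end, was lower by 0.46 in follicular than in transitional WT cells and by 0.53 in transitional Sh3gl1-/- than in WT cells (edgeR adjusted p = 0.00982 and 0.0354, the latter kept in 2 of 6 fits that left out a library).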

How the data were processed

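Poly(A) RNA-seq libraries of 18 samples, 3 in each of 6 groups, were read from 1 table. Per the submitters' processing notes the authors trimmed reads with cutadapt 1.9.1 and quantified genes with STAR 2.5.2a and RSEM 1.3.0 on GRCm38. The kit was stranded per the labels, and whether counting used strand is not given in the sources used here. The paper's methods differ, naming SMART-Seq HT with NexteraXT, another aligner and quantifier, and an overnight CD40L culture. A legend of the paper gives a longer culture than the 14 h of the labels. The labels and processing notes were followed. The deposited table holds RSEM expected counts, which are estimates and need not be whole, together with TPM and FPKM made by the authors. Expected counts were rounded and tested with edgeR 4.0.16 (R 4.3.3; TMM scaling, filterByExpr, quasi-likelihood test, Benjamini-Hochberg adjustment over all tested genes, called at an adjusted p under 0.05). Maturation and CD40L response were each fitted over 12 libraries of both genotypes, and each genotype comparison over its own 6 libraries. The fits were tested on simulated data. DESeq2 1.42.0, other scalings and filters, 1 fit of all 18 libraries, a replicate block and left-out libraries served as alternatives.

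TPM was used without further scaling. Ratios and form shares were compared with two-sided exact permutation tests over libraries, which cannot go below 0.1, and adjusted over 7 comparisons each. The secreted share was an added measure, solved from the effective gene length with the transcripts named 201 (secreted) and 202 (membrane) in GENCODE M21. Of the gene identifiers, 51633 matched that annotation. Counting floors and p-values cover counting error or the spread between libraries only. Replicate numbers pair the libraries within each genotype, as a hint from the data, since the labels do not say what a number marks. The correlations of same-numbered deviations from group means were 0.103 to 0.242 for WT maturation and 0.115 to 0.263 for Sh3gl1-/- maturation. They were 0.136 to 0.224 for the WT CD40L response and lower, 0.0304 to 0.119, for that of Sh3gl1-/- cells. In each of these the highest correlation was with the same number. Genotype comparisons were not paired by this check. Named genes were all 10 members in every group, the up to 3 best-ranked called genes, by adjusted p, of every function list in either direction, with Zfp318, Cd79a, Cd79b, Iglc2 and Iglc3 always, and the 3 genes most correlated with each member over 18 libraries. Other genes, such as Jchain, were added as markers. The members and lists were chosen with earlier results of these data known. Overlapping genes on the same or the other strand, such as Gm30211 at Igkc (1274 to 3770 counts), can share reads with a member. Some genes that this rule names are not reported here.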

Additional observations from a re-analysis of the deposited data

How the results depend on the processing

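Numbers of the 9 or 10 tested members called by edgeR moved mainly with the low-count filter, the pairing and transitional Sh3gl1-/- libraries 1 and 3. With every gene of at least 1 count kept, 8 members were called in WT maturation, 5 in the difference of maturation, 7 in the WT CD40L response, 5 by genotype in transitional and 4 in follicular cells. The same setting called 4013 of 26727 genes in WT maturation, 462 of 26727 in the difference and 7246 of 26213 in the WT CD40L response. It called 1426 of 24719 by genotype in transitional cells. With the filter these were 3772 of 14580, 10 of 14580, 7126 of 14460 and 514 of 13774. The replicate block set within each genotype was added once the data had been seen. It gave 5 in WT maturation (4246 of 14580 genes called) and 2 in the difference of maturation (99 of 14580). It changed no other comparison's count by over 1.5 times. The replicate block across genotypes gave 0 in the transitional genotype comparison (90 of 13774 genes called) and 2 in the follicular one. DESeq2 gave 1 in the difference of maturation (364 of 14580 genes called) and 2 by genotype in transitional cells (1340 of 13774). All 18 libraries in 1 fit gave 0 in both untreated genotype comparisons, and scaling without immunoglobulin genes 0 in follicular cells. Without transitional Sh3gl1-/- libraries 1 and 3, likewise added later, fewer members were called in Sh3gl1-/- maturation and by genotype in transitional cells. Fewer of all genes were called in that maturation comparison too. The cause was not tested for these moves.

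Leaving out 1 library gave 3 to 4 called members in WT maturation, 3 to 7 in Sh3gl1-/- maturation, 0 to 1 in its difference, 3 to 6 and 3 to 5 in the WT and Sh3gl1-/- CD40L responses, 0 in the difference of responses, 0 to 2 in transitional and 0 to 2 in follicular genotype comparisons, and 0 after CD40L. Some of the CD40L counts include Ighe, which passed the filter in part of these fits. The number of all genes called moved as well. It was 2444 of 14945 to 3773 of 14987 in WT maturation and 986 of 15072 to 1647 of 14930 in Sh3gl1-/- maturation. For CD40L it was 5981 of 14987 to 7296 of 14964 in WT and 5080 of 14971 to 6548 of 14964 in Sh3gl1-/- cells.

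With Iglc2 and Iglc3 in the lambda share its differences, in percentage points, were -4.01 and 6.75 for WT and Sh3gl1-/- maturation, -3.37 for the Sh3gl1-/- CD40L response, and 3.27 and 1.61 for genotype in follicular and CD40L-treated cells. Among the fitted estimates of members, those that changed sign were uncalled: Ighd in the difference of CD40L responses (-0.0054 with DESeq2 and with RLE scaling, -0.12 to 0.23 over left-out libraries), Ighm in that difference (-0.0057 to 0.13) and Ighm by genotype in transitional cells without transitional Sh3gl1-/- libraries 1 and 3 (-0.018). Over all genes, DESeq2 called 1340 rather than 514 in transitional and 352 rather than 115 in follicular genotype comparisons. Over left-out libraries the sign also changed for differences in percentage points whose groups overlap: the lambda share by genotype in follicular (-0.20 to 1.05) and CD40L-treated cells (-1.02 to 0.24), the downstream share in the same comparisons (-0.09 to 0.11 and -0.15 to 0.17), the secreted share of Ighm in the WT CD40L response (-0.41 to 0.48), and that of Igha in both CD40L responses and in the same genotype comparisons (-9.25 to 8.88 over these).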

Other observations

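Marker lists of cell types that the report does not use were also measured. Marginal zone markers summed to 161 to 203 TPM in transitional Sh3gl1-/- and 294 to 342 TPM in transitional WT libraries, and 1 of 5 was called lower. Germinal centre markers summed to 103 to 108 TPM in transitional Sh3gl1-/- and 78.0 to 86.2 TPM in transitional WT libraries, and 1 of 6 tested was called higher. Myeloid markers reached 1183 TPM in a transitional and 1260 TPM in a follicular Sh3gl1-/- library, against at most 450 TPM in WT libraries, with 0 of 7 called by edgeR in either comparison. B1 cell markers summed to 20.5 to 32.0 TPM and 26.4 to 35.2 TPM in transitional Sh3gl1-/- and WT libraries.

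The closest genes to the downstream heavy chain members over the 18 libraries were Zfp710, Igkv15-103 and Stab2 for Igha (r = 0.929 to 0.930), Ighv15-2, Ighv2-9-1 and Ighv5-9-1 for Ighg3 (r = 0.775 to 0.830), Maged1, Ighg3 and Zfp704 for Ighg2b (r = 0.753 to 0.778), Agmo, Tktl1 and Dab2 for Ighg2c (r = 0.838 to 0.861), and Stx1a, Klhl11 and Clec4e for Ighg1 (r = 0.719 to 0.758). Tmem245 and Gm37593 followed Zfp318 for Ighd (r = 0.963 and 0.965). These are descriptions over libraries that share groups, with no test.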
